A study of Mus musculus with 6 samples.

Results

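The transcripts of 9 genes, of 27454 with a symbol on the array, from the MAP kinase and Rap1 signalling pathways were followed in mouse renal cortex on one-colour arrays: Mapk3, Mapk8, Mapk9, Mapk14, Map3k7, Map2k3, Map2k6, Rap1a and Rap1b. They were chosen because the study examined signalling of this kind as protein, and every non-control probe that the array design named for one of them was taken, which gave 25 of 56605 probes. The arrays carried cortex RNA of male mice of 16 weeks. The labels named 3 arrays db/m, the non-diabetic carriers of the leptin receptor mutation, and 3 arrays db/db, the mice without a working leptin receptor on the C57BLKS/J background that become obese and diabetic. The methods of the study instead described the arrays as treated and non-treated db/db mice, and the design text spoke of 8 weeks of treatment with HQD, the Huangqi decoction, a mixture of herbs. The groups were kept as labelled, and differences are on the log2 scale, with the labelled db/db mean subtracted from the labelled db/m mean. Whether it reflects genotype or treatment cannot be told apart from these sources, so the labels limit the meaning of each direction.

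MAP kinases act at the end of a relay in which a MAP3 kinase phosphorylates a MAP2 kinase, which then phosphorylates the MAP kinase. Map3k7 (TAK1) stands at the top of a branch that responds to BMP, TGF-beta and inflammatory signals, Map2k3 and Map2k6 (MKK3 and MKK6) activate p38, and the end points here are Mapk3 (ERK1), Mapk8 and Mapk9 (JNK1 and JNK2) and Mapk14 (p38-alpha). Rap1a and Rap1b are small GTPases that switch between a GTP-bound and a GDP-bound form and act on integrins and cell junctions, in podocytes among other cells. The activity of all these proteins is set by phosphorylation or by the bound nucleotide, which an RNA array does not measure.

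Of the 25 probes, 20 had signal well over background on each of the 3 arrays of one group or of both and were tested, and they covered all 9 genes. The 4 dim probes (2 for Mapk8, 1 for Map2k3 and 1 for Map2k6) did not clear the background on any of the 6 arrays, and 1 Rap1b probe was left out of the fit for a flagged spot. The probes were 60 bases long with 35% to 55% G and C. On the mm9 build, 23 lay in an unbroken stretch of the genome, while 2 probes for Rap1a spanned 5743 and 4332 bases and so joined separated exons. The 6 sequences below belong to probes other than the brightest of their gene, and are shown for the stretch of the transcript that each of them read, since a gene is described here by several probes. They are written 5′ to 3′ in lower case with no part set in capitals. The first pair are the Rap1a probes that cross introns (strand -, chr3:105534989-105540731 and chr3:105548841-105553172), the second of them designed on a Rap1A-retro mRNA, so that signal from Rap1a and from a retrotransposed copy may not be separable. The others are the dimmer Mapk14 probe (strand +, chr17:28873965-28874024), the dimmer Mapk9 probe (strand +, chr11:49677113-49677172) and the dimmer Map3k7 probes (strand +, chr4:32104023-32104082 and chr4:32068474-32068533).
Rap1a A_55_P2722945: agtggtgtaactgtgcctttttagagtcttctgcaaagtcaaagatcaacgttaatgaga
Rap1a A_55_P2128493: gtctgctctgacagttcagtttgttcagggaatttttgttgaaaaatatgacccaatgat
Mapk14 A_55_P2179348: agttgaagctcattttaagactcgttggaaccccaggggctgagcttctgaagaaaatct
Mapk9 A_52_P27244: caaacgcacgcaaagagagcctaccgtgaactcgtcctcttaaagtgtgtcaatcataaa
Map3k7 A_52_P175952: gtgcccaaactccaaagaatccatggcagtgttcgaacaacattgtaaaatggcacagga
Map3k7 A_55_P2640840: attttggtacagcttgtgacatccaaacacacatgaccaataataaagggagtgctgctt

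The arrays differed in the tissue they held. Markers of proximal tubule were bright on every array, as the labelled tissue would have them, and all 7 were lower in labelled db/m, with a median difference of -0.37 and none at an unadjusted p under 0.05. Their summed signal, as a multiple of the 75th percentile of the array, was 661, 1150 and 868 on db/m replicates 1 to 3 and 1040 to 1200 on the db/db arrays. The 3 inner medulla markers (Aqp4, Slc14a2 and Slc5a3) went the other way, with summed signals of 21.2, 4.13 and 11.8 on the db/m arrays and 4.06 to 5.56 on the db/db arrays. Summed immune markers ran from 22.6 to 27.8 in labelled db/m and from 18.4 to 24.6 in labelled db/db, and 6 of 7 were higher in labelled db/m. At an unadjusted p under 0.05 there were 2 of 3 inner medulla markers, both higher, and 4 of 7 immune markers, 3 higher and 1 lower. Of 4 urothelial markers 1 was tested, Krt5, which differed by 1.53 (limma adjusted p = 0.259) with signals of 0.281 to 0.979 against 0.109 to 0.295. Slc12a3, the salt carrier of the distal convoluted tubule, had the smallest p of the markers and differed by -0.91 (adjusted p = 0.240). Pvalb, the other marker of that segment, differed by -0.03 (adjusted p = 0.952). The part of these shifts in the results was not tested, and in such bulk samples fewer cells of a type and less RNA per cell cannot be told apart. For Lepr, the leptin receptor gene, 1 of 6 probes was tested, with levels of 1.38, 1.60 and 1.18 in labelled db/m and 0.60, 0.64 and 1.65 in labelled db/db. There db/db replicate 3 lay above all db/m arrays, while db/db replicates 1 and 2 lay below all of them. The probe is no check of the genotype, since it is not known to lie in the altered part of the gene.

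None of the 20 probes passed an adjusted p of 0.05 in limma, and no probe of all 29889 tested did (0%), so no direction among the 9 genes was called. Over all probes that count was 59 without db/m replicate 2 and 123 without db/db replicate 3, none of them a member. At an unadjusted p under 0.05 there was 1 member probe, 5% of the 20, against 17.7% of all probes tested. That probe was lower in labelled db/m (5% against 10.8%), and none was higher (0% against 6.9%). The study's screen, a fold of at least 2 with an unadjusted p under 0.05, held no member against 0.96% of all probes. The groups did not overlap for 5 probes, 25% of the members against 24.1% of all probes tested. Of these, 4 were lower in labelled db/m (20% against 16.4%) and 1 was higher (5% against 7.75%). The share at an unadjusted p under 0.05 was thus under the background, and the non-overlapping share was close to it.

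The differences of the member probes were small. They ran from -0.34 to 0.22 with standard errors from 0.10 to 0.15, and the 95% intervals of all 20 lay between -0.67 and 0.49, inside a 2-fold change in either direction. The median size of the difference was 0.15 for the members and 0.20 over all probes tested. The difference was below 0 for 15 of 20 members, 75% against 53.5% of all probes, and the median was -0.13 against -0.03. The members were also brighter than the usual probe, with a median level of 0.54 against -0.24. When all probes were cut by level into 4 bins of equal size, from dim to bright, the median difference was 0.16, 0.04, -0.06 and -0.14. The bins held 4, 4, 7 and 5 member probes, with medians of -0.06, -0.05, -0.16 and -0.15. In the bright bins the members and all probes shared a sign (-0.16 and -0.15 against -0.06 and -0.14). In the dim bins they did not, with -0.06 and -0.05 for the members against 0.16 and 0.04. The part of signal level in the lower median of the members was not tested.

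**Figure D1:**
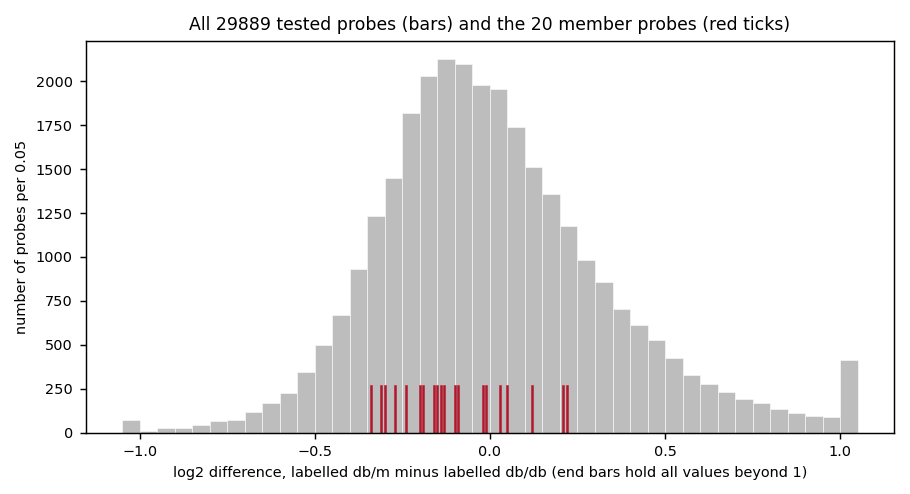
Histogram of the log2 difference, labelled db/m minus labelled db/db, over the 29889 probes tested (vertical axis, number of probes per bin of 0.05), with the end bars holding all values beyond 1 and red ticks for the 20 probes of the 9 genes. The ticks lie between -0.34 and 0.22, within the central body of the distribution.

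Levels below are log2 signals relative to the 75th percentile of the array, given for replicates 1, 2 and 3 in turn, and a level is compared only within a probe. Of the 3 slides, slide 1 held db/m replicate 1 and db/db replicate 3, slide 2 held the other db/m arrays and slide 3 held the other db/db arrays. The within-slide difference is therefore a single pair of arrays. Its db/m array had the highest inner medulla sum (21.2) and the lowest proximal tubule sum (661) of all arrays. On its db/db array these sums were 5.56 and 1100. The slide 1 values thus hold a difference in tissue, and its part in them was not tested.

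At the top of the relay, Map3k7 had 3 tested probes, and their differences were -0.24, -0.14 and -0.02. The brightest, A_55_P2049086 (chr4:32107645-32107704), read 1.05, 1.16 and 0.99 in labelled db/m and 1.36, 1.43 and 1.12 in labelled db/db. The db/db replicate 3 array fell among the db/m arrays, so the groups overlapped. The difference was -0.24 (SE 0.13, 95% interval -0.53 to 0.06, limma adjusted p = 0.345), and on slide 1 it was -0.06. The probes A_52_P175952 (SE 0.12, adjusted p = 0.549) and A_55_P2640840 (SE 0.13, adjusted p = 0.929), whose sequences are given above, also had overlapping groups.

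Map2k3, an activator of p38, held the member probe with the largest difference. A_51_P272817 (chr11:60765712-60765771) read 0.34, 0.42 and 0.40 in labelled db/m and 0.71, 0.75 and 0.73 in labelled db/db. Every db/m array lay below every db/db array, and the spread within a group was small (means 0.39 ± 0.05 and 0.73 ± 0.02, SD, n = 3 each). The difference was -0.34 (SE 0.10, 95% interval -0.57 to -0.11), a ratio of 0.790, with an unadjusted p of 0.01 in the limma fit that became 0.240 after adjustment. Within slide 1 it was -0.39. Leaving out 1 array at a time gave -0.36 to -0.31. With both db/m arrays rich in inner medulla markers left out it was -0.31, a value that rests on 1 db/m array, which is assumed to vary like the db/db arrays.

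The other Map2k3 probes gave smaller values. A_55_P2805669 (chr11:60766210-60766269), on the same transcript and the brightest for the gene, read 2.56, 2.66 and 2.71 against 2.74, 2.87 and 2.76. All db/m arrays were below all db/db arrays, but the nearest were 2.71 and 2.74, and the difference was -0.15 (SE 0.10, 95% interval -0.39 to 0.10, adjusted p = 0.459). A_66_P124118, designed on another Map2k3 transcript and dim, read -2.19, -2.24 and -2.21 against -2.24, -2.34 and -2.42. Its groups met at -2.24 and its difference had the opposite sign, 0.12 (SE 0.10, adjusted p = 0.537). The 3 probes for Map2k3 therefore did not share a direction.

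Map2k6, the other activator of p38, was read by 1 tested probe, A_55_P2913699 (chr11:110374876-110374935). It read 1.37, 1.78 and 1.51 in labelled db/m and 1.78, 1.83 and 1.93 in labelled db/db. Replicate 2 of db/m reached the lowest db/db array, and the other db/m arrays lay below all of them. The difference was -0.30 (SE 0.14, 95% interval -0.62 to 0.03, adjusted p = 0.304), and within slide 1 it was -0.57. Both lower db/m arrays were those rich in inner medulla markers, and without them the difference was -0.07. Their part in it was not tested further.

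Mapk14, the p38-alpha kinase that both activators act on, was read by 2 probes. The brighter, A_55_P2046338 (chr17:28885290-28885349), read 4.21, 4.43 and 4.18 against 4.38, 4.64 and 4.37. Replicate 2 was the highest array of each group and the groups overlapped, with a difference of -0.19 (SE 0.13, 95% interval -0.50 to 0.12, adjusted p = 0.442). The dim probe A_55_P2179348 read -2.86, -2.47 and -2.84 against -2.42, -2.26 and -2.55, with a difference of -0.31 (SE 0.15, adjusted p = 0.317). Here too db/m replicate 2 stood apart from the other db/m arrays and among the db/db arrays, and without db/m replicates 1 and 3 the differences of the probes were -0.03 and -0.06.

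The JNK genes lay on either side of 0. For Mapk8 (JNK1), the brightest probe A_55_P2808167 (chr14:34193232-34193291) read -0.03, 0.13 and 0.10 in labelled db/m and -0.27, -0.15 and -0.04 in labelled db/db. It was the 1 member probe with every db/m array above every db/db array, by a gap between -0.03 and -0.04, and the difference was 0.22 (SE 0.11, 95% interval -0.05 to 0.49, adjusted p = 0.336). On slide 1 the difference was 0.01. The other tested Mapk8 probes had overlapping groups and differences of 0.21 (SE 0.12, adjusted p = 0.380) and 0.03 (SE 0.12, adjusted p = 0.90).

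For Mapk9 (JNK2), the brightest probe A_55_P1973289 (chr11:49699496-49699555) read 1.62, 1.54 and 1.58 in labelled db/m and 1.63, 1.90 and 1.69 in labelled db/db. No db/m array reached a db/db array, but 1.62 and 1.63 nearly met, and the difference was -0.16 (SE 0.11, 95% interval -0.43 to 0.11, adjusted p = 0.454). The dimmer probe A_52_P27244 read -1.88, -1.90 and -1.98 against -1.70, -1.53 and -1.93, with a difference of -0.20 (SE 0.13, adjusted p = 0.419). Its groups overlapped through db/db replicate 3, and within slide 1 its difference was 0.05.

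Mapk3 (ERK1) was read by 1 probe, A_52_P243249 (strand +, chr7:133908973-133909032). Its levels were 2.82, 2.71 and 2.68 in labelled db/m and 3.01, 2.79 and 2.81 in labelled db/db. Replicate 1 was the highest array of each group and the groups overlapped. The means were 2.74 ± 0.08 and 2.87 ± 0.12 (SD, n = 3 each), and the difference was -0.13 (SE 0.11, 95% interval -0.40 to 0.14, adjusted p = 0.527). Within slide 1 it was 0.01.

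**Figure D2:**
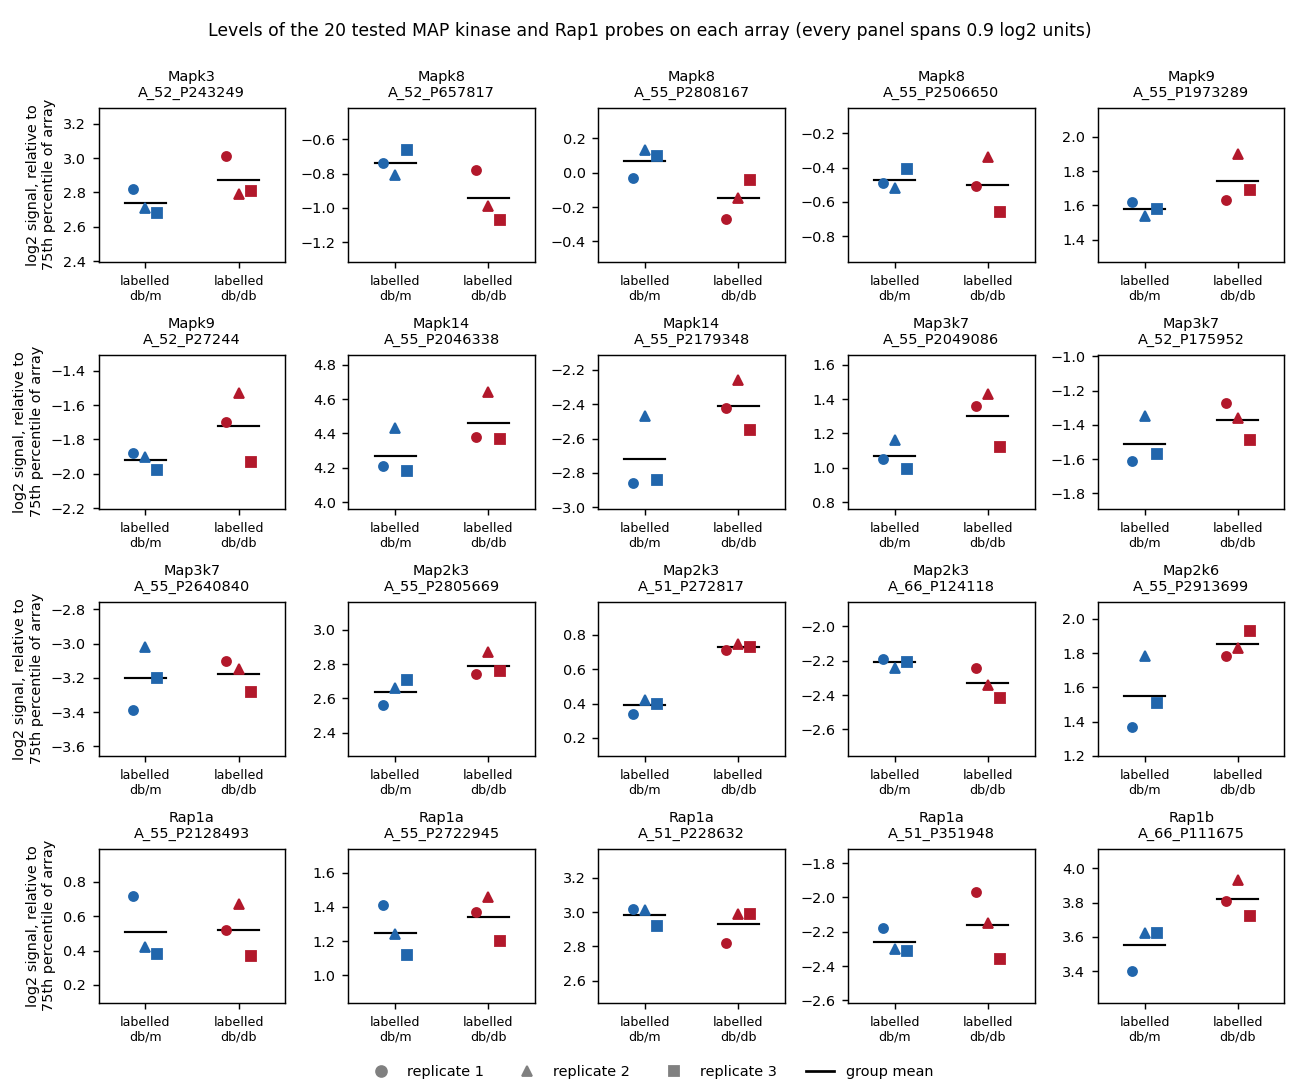
Level of each of the 20 tested probes (vertical axes, log2 signal relative to the 75th percentile of the array, every panel 0.9 log2 units high) on the 3 labelled db/m arrays (blue) and 3 labelled db/db arrays (red), with symbols for replicates and a line for the group mean. The 2 groups separate most clearly for Map2k3 A_51_P272817, at 0.34 to 0.42 against 0.71 to 0.75.

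For Rap1a, the difference of each of the 4 tested probes was smaller than its standard error. The brightest, A_51_P228632 (strand -, chr3:105531323-105531382), read 3.02, 3.01 and 2.92 in labelled db/m and 2.82, 2.99 and 2.99 in labelled db/db. The groups overlapped almost wholly, and the difference was 0.05 (SE 0.11, 95% interval -0.20 to 0.30, adjusted p = 0.806). The exon-joining probe A_55_P2722945 differed by -0.09 (SE 0.13, adjusted p = 0.708) and A_55_P2128493, on the retro mRNA, by -0.01 (SE 0.14, adjusted p = 0.970). The remaining probe, A_51_P351948 on a cDNA the array design calls unclassifiable, differed by -0.10 (SE 0.13, adjusted p = 0.670).

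Rap1b was read by 2 bright probes on chromosome 10, strand -, that overlap by 20 bases (chr10:117251655-117251674). The shared letters, in capitals because they are the stretch common to both probes, mean that the probes are not independent measurements of the gene.
Rap1b shared by A_66_P111675 and A_55_P2002632: AAAGTGGTGCAATTTTGTAT

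The tested probe A_66_P111675 read 3.40, 3.62 and 3.62 in labelled db/m and 3.81, 3.93 and 3.72 in labelled db/db. Every db/m array lay below every db/db array, with 3.62 and 3.72 nearest. The difference was -0.27 (SE 0.12, 95% interval -0.56 to 0.01), a ratio of 0.828, with an unadjusted p of 0.0573 in limma that became 0.292 after adjustment. Within slide 1 it was -0.31, and without both db/m arrays rich in inner medulla markers -0.20. The probe that was left out, A_55_P2002632, read 3.01, 3.16 and 3.26 against 3.40, 3.38 and 3.32, where 3.38 came from the spot flagged as non-uniform. Kept in a fit, it differed by -0.22 (SE 0.11, adjusted p = 0.335), and its groups did not overlap either.

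**Figure D3:**
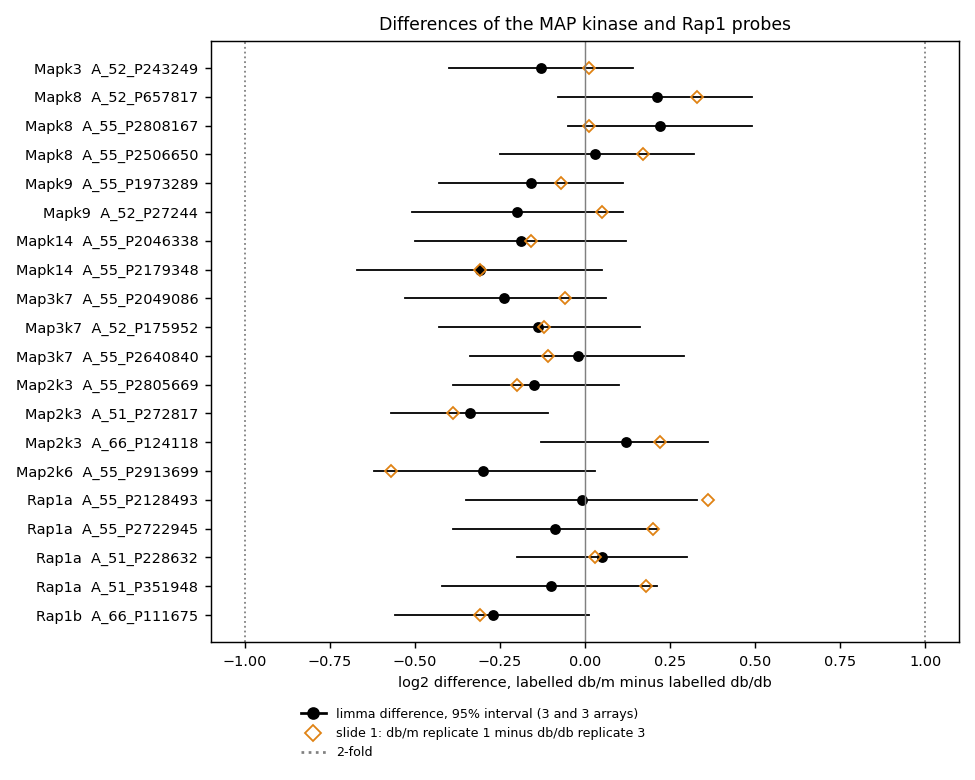
Difference of each tested probe (horizontal axis, log2, labelled db/m minus labelled db/db) from the limma fit on 3 and 3 arrays with its 95% interval (black), and the difference of the 2 arrays that shared slide 1 (open diamonds). Intervals lie between -0.67 and 0.49, inside the dotted lines at a 2-fold change, and the interval of Map2k3 A_51_P272817 (-0.57 to -0.11) is the 1 that leaves out 0.

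Related genes were then compared within each array on their brightest probes, so that a factor scaling both probes alike on an array cancelled. A shift that depends on signal level, as above, or on the tissue an array held does not cancel. The difference of a pair has no meaning as a ratio of amounts, since the probes differ, and only its change between groups is given. No more than 11 bases in a row were shared between probes of different member genes. Over the 3 pairs, an exact permutation test of 3 against 3 arrays, two-sided, can go no lower than 0.1. Mapk8 minus Mapk9 was -1.65, -1.41 and -1.49 in labelled db/m and -1.90, -2.05 and -1.74 in labelled db/db. The groups did not overlap, and the difference of 0.38 (SD 0.12 and 0.16) had an exact p of 0.1, the smallest possible, and 0.15 after adjustment over the 3 pairs. Rap1a minus Rap1b was -0.39, -0.61 and -0.70 against -1.0, -0.95 and -0.73. Those groups lay apart, narrowly, at -0.70 against -0.73, and the difference was 0.32 (SD 0.16 and 0.14, exact p = 0.1, adjusted 0.15). Map2k3 minus Map2k6 overlapped, with a difference of 0.15 (SD 0.18 and 0.11, exact p = 0.3).

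Other genes of the pathways were taken by role, as the brightest tested probe of each gene, and 103 of 110 listed genes were tested. None passed an adjusted p of 0.05. At an unadjusted p under 0.05 there were 3 higher and 7 lower in labelled db/m, 9.71% of the 103 against 15.6% of the brightest probes of all genes with a symbol. The groups did not overlap for 16.5% against 22.9%. The median difference was 0.02 against -0.04, with 57 genes above and 46 below 0, or 55.3% above against 44.9%. The brightest probes of the 9 genes had a median of -0.16. For those 9 the groups did not overlap in 44.4%, and none reached an unadjusted p under 0.05.

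In the ERK cascade, 8 of 15 genes were lower and 3 of them reached an unadjusted p under 0.05. Map2k1, the kinase MEK1 directly above ERK, read 2.21, 2.01 and 1.98 in labelled db/m and 2.48, 2.53 and 2.42 in labelled db/db. The groups lay apart, and the difference was -0.41 (SE 0.11, adjusted p = 0.240) with -0.22 on slide 1. Map2k2, which encodes MEK2, differed by -0.37 (SE 0.14, adjusted p = 0.261) and Araf, a RAF kinase above both, by -0.30 (SE 0.11, adjusted p = 0.254). These 3 genes and Mapk3 (-0.13) were all lower in labelled db/m, though the list as a whole had a median of 0.00.

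In the JNK and p38 cascade, 13 of 20 genes were higher (44.9% of all genes with a symbol were) and the median was 0.07. Map3k11, a MAP3 kinase above JNK, was the 1 gene at an unadjusted p under 0.05, with a difference of -0.37 (SE 0.11, adjusted p = 0.240). Among the partners of TAK1, 7 of 9 were lower and 2 higher, with a median of -0.12, again beside 44.9% higher over all genes. Ripk1, a kinase of the TNF receptor complex, differed by -0.27 (SE 0.10, adjusted p = 0.248). The Map3k7 probes differed by -0.24, -0.14 and -0.02, and a link between the genes was not tested. The phosphatases and inhibitors that switch MAP kinases off were 7 higher and 6 lower among 13 tested of 17. Dusp2, a phosphatase of MAP kinases, differed by 0.56 (SE 0.19, adjusted p = 0.245). Its probe was dim (means -2.21 and -2.78), and with normexp the difference was 0.33. Among the substrates, 8 were higher and 7 lower, and Elk4, a transcription factor that MAP kinases phosphorylate, differed by -0.31 (SE 0.13, adjusted p = 0.281) with -0.04 on slide 1.

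On the Rap1 side, the exchange factors that load GTP were evenly split, 6 higher and 6 lower, with a list median of -0.01. Without both db/m arrays rich in inner medulla markers 2 were higher and 10 lower. The list median was then -0.16, a value that rests on 1 db/m array. Rapgef4 (EPAC2), a cAMP-responsive exchange factor, differed by 0.39 (SE 0.14, adjusted p = 0.249). Its probe was dim (means -2.64 and -3.03), and with normexp the difference was 0.15. Of the 7 GTPase-activating proteins, which turn Rap1 off, 6 were higher (44.9% of all genes with a symbol were) with a list median of 0.25, and none reached an unadjusted p under 0.05. For Sipa1 the levels were 1.96, 1.52 and 1.96 in labelled db/m and 1.59, 1.54 and 1.56 in labelled db/db, and for Rap1gap they were 5.41, 3.74 and 4.78 against 4.59, 4.15 and 4.37. In both, db/m replicate 2 lay below all db/db arrays and the db/m arrays rich in inner medulla markers lay above them. Without those arrays 4 of the 7 were higher and the list median was 0.04. Sipa1 and Rap1gap were named after their values were seen, and the rest of the list did not share their pattern. In Rap1gap2 and Sipa1l3, db/m replicate 2 was the lowest db/m array but not below all db/db arrays. In Sipa1l1, Sipa1l2 and Rasa3 the lowest db/m array was replicate 1 (0.48, 1.67 and 0.75), which is rich in inner medulla markers. Among effectors and Rap2 genes, 8 were higher and 4 lower, with 1 in each direction at an unadjusted p under 0.05. The higher one, Radil, a Rap1 effector in cell adhesion named after its values were seen, read 1.18, 1.18 and 1.13 against 0.29, 0.22 and 1.15. Its groups overlapped through db/db replicate 3, and the difference was 0.61 (SE 0.25, adjusted p = 0.277). Tln2, a talin that joins integrins to actin, had the largest difference of all the listed genes, at 0.47, 1.01 and 0.70 in labelled db/m and 1.44, 1.68 and 1.43 in labelled db/db. The groups did not overlap, and the difference was -0.79 (SE 0.16, 95% interval -1.18 to -0.40, adjusted p = 0.240), with -0.96 on slide 1 and -0.51 without both db/m arrays rich in inner medulla markers.

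**Figure D4:**
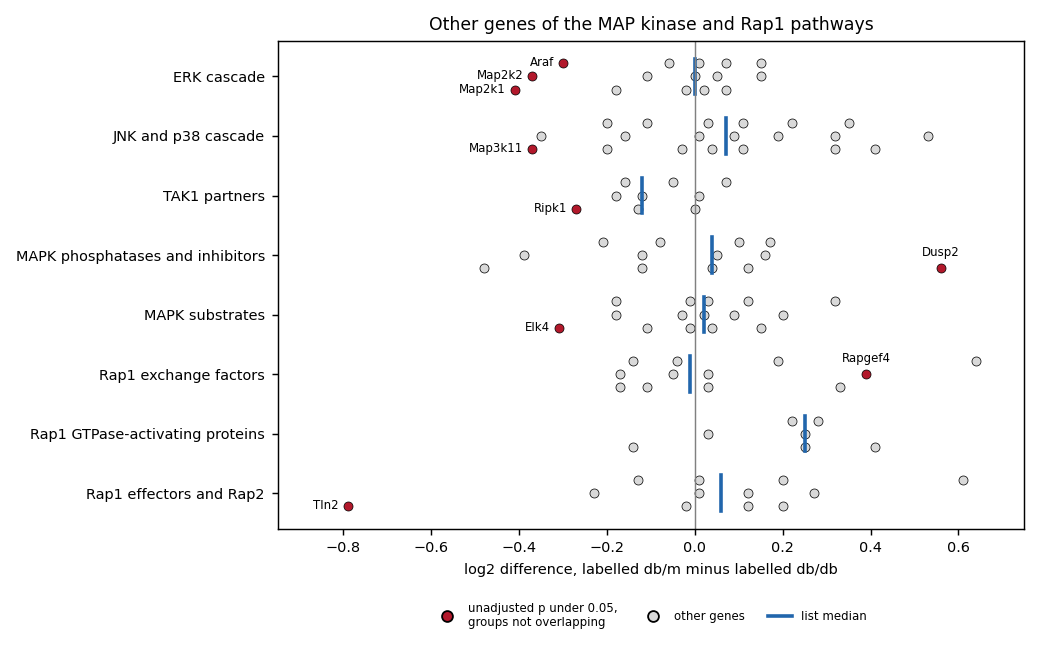
Difference of each of the 103 other pathway genes (horizontal axis, log2, labelled db/m minus labelled db/db; 1 point per gene, rows are lists by role), with a blue bar at each list's median. Red points are genes with an unadjusted limma p under 0.05 and non-overlapping groups, and the farthest from 0 is Tln2 at -0.79.

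Over the 6 arrays, the genes whose levels most resembled those of a member were found by Pearson's r among the 15571 genes well above background on every array, as a description. For Mapk3 they were LOC105247651 (r = 0.995) and Gm5785 (r = 0.985), and 56 genes had an r over 0.95. For Rap1a they were Pwp1 (r = 0.986) and BC034090 (r = 0.986) among 11 such genes. For Rap1b they were Atg7 (r = 0.993) and Cenpb (r = 0.992) among 200. All these values share the same 6 arrays, their depth and their tissue makeup.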

How the data were processed

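Cy3-labelled cortex RNA of 3 labelled db/m and 3 labelled db/db mice was read on one-colour Agilent arrays. The authors deposited spot intensity values from Agilent Feature Extraction 10.7.1.1, per the labels, background-subtracted and not normalized between arrays, and a matrix of log2 values whose columns share nearly the same sorted values, by a method not given in the sources used here. The file of db/m replicate 1 had been saved again with fewer digits, and 71 gene names in it differ, so names came from the other files. Coordinates are mm9.

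Control spots (3671 of 62976) and outlier spots were left out (135 probes lost). Spots of a probe were averaged, and log2 intensity was centred on the 75th percentile of its array. Median intensity was 76.0 to 112, and 51.6% to 59.0% of probes were well above background on an array. Arrays correlated at 0.981 to 0.993, with 0.992 between db/m replicate 2 and db/db replicate 3. The number of arrays limits precision. Probes with signal well over background on each array of one group or of both (29889) were fitted in limma 3.58.1 (R 4.3.3) with Benjamini-Hochberg adjustment over all of them. The methods name 3 mice per group, and the labels do not tie arrays to mice, so p-values measure the spread between these samples. Named pathway genes were, per list, up to 3 with the largest difference among those at an unadjusted p under 0.05 with groups that did not overlap.

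Member genes, gene lists and tests were chosen with earlier results of these data known. Alternatives were quantile normalization, median centring, normexp (offset 50), the dim-probe filter, limma with trend and robust variance, a t-test with pooled variance, slide and replicate blocks, the mean over the probes of a gene, the deposited log2 matrix and leaving arrays out. Keeping the flagged Rap1b spot and leaving out both db/m arrays rich in inner medulla markers were chosen after seeing the data. Keeping the spot left the other differences shown unchanged, and the deposited matrix gave values close to quantile normalization. For the replicate numbers, deviations of same-numbered arrays correlated at 0.35, 0.15 and 0.05, against a threshold of 0.1 set for pairing. The best match was the same number for replicates 1 and 3, and db/db replicate 3 for db/m replicate 2. The labels name no pairs, and the replicate block was used only as an alternative.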

Additional observations from a re-analysis of the deposited data

How the results depend on the processing

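The member probe count at an unadjusted p under 0.05 was 1 as reported, 3 with trend and robust variance and 4 with median centring. It was 2 with quantile normalization, normexp, no filter on dim probes, the t-test, the deposited log2 matrix and the replicate block. It ran from 1 to 4 when 1 array was left out, with 3 without db/m replicate 2 and 4 without db/db replicate 3, and was 0 without both db/m arrays rich in inner medulla markers, where 1 db/m array remained. The share of all probes, 17.7%, rose to 22.3% with median centring, 23.2% without db/m replicate 2 and 24.3% without db/db replicate 3. It fell with no filter (8.74%) and normexp (15.9%). None of the members passed the adjusted threshold under any alternative. Map2k3 A_51_P272817 had an unadjusted p under 0.05 in 17 of 19 alternatives, the exceptions being the slide block and the fit without both medulla-rich db/m arrays, which leave few arrays to compare, and ran from -0.53 to -0.30. Among the pathway genes, Tln2 had one in 19 of 19, Map2k1 in 18, Map3k11 in 16, Ripk1 in 12, Araf, Map2k2 and Dusp2 in 10 each, Rapgef4 in 8 and Elk4 in 7. Without both medulla-rich db/m arrays Map2k2 was -0.18, Dusp2 0.29 and Rapgef4 0.19. Median centring moved the median of all probes from -0.03 to -0.21 and that of the members from -0.13 to -0.32, and 18 members were then lower. With the slide as a block 10 of 20 members were lower, with a median of -0.03, against -0.04 for all probes.

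The pathway count of 10 at an unadjusted p under 0.05 was 5 with no filter, 5 with the slide as a block, 5 without both db/m arrays rich in inner medulla markers, and 2 (without db/m replicate 3) to 20 (without db/m replicate 2) with 1 array left out, being 5 without db/m replicate 1 and 4 without db/db replicate 1 or 2. Its adjusted count was 0, and 0 to 1 with 1 array left out (1 without db/db replicate 3). The tissue marker count of 8 was 16 with median centring.

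Some probes close to 0 changed sign, and the cause was not tested. Map2k3 A_66_P124118 was -0.02 with quantile normalization, -0.07 with median centring and -0.02 in the matrix. Rap1a A_55_P2128493 was 0.02 with quantile normalization, 0.01 with normexp, 0.36 with the slide block, 0.02 in the matrix, and 0.03, 0.05 and 0.07 without db/m replicate 2, db/m replicate 3 and db/db replicate 2. Mapk8 A_55_P2506650 was -0.16 with median centring, 0.00 without db/m replicate 3, -0.05 without db/db replicate 3 and -0.02 without both db/m arrays rich in inner medulla markers, which also gave 0.02 for Map3k7 A_52_P175952 and 0.16 for Map3k7 A_55_P2640840. With 1 array left out, Mapk8 A_55_P2506650 ran from -0.05 to 0.11, Map3k7 A_55_P2640840 from -0.12 to 0.07 (0.07 without db/m replicate 1, 0.02 without db/db replicate 1), Rap1a A_55_P2128493 from -0.12 to 0.07 and Rap1a A_51_P228632 from -0.01 to 0.08. Rap1a A_51_P228632 was -0.14 with median centring and -0.01 without db/db replicate 1. The slide block gave 0.01 for Mapk3, 0.05 for Mapk9 A_52_P27244, 0.20 for Rap1a A_55_P2722945 and 0.18 for Rap1a A_51_P351948.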
